A study of Mus musculus with 12 samples.

Results

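The genes described here encode the killing machinery of cytotoxic lymphocytes, measured in biopsies of mouse colon tumors. They are the granzymes Gzma, Gzmb and Gzmk, the pore-forming protein Prf1, the granule membrane protein Nkg7, the cytokine Ifng, the death ligand Fasl, the receptors Klrd1 and Ncr1, and the transcription factor Eomes. A gene was taken where a probe set of the array names it alone. All 10 genes had 1 such probe set each, out of 19938 genes measured this way. The samples were 12 arrays from 6 mice, an early and a late biopsy of 1 colon tumor in each mouse.

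All mice were F1 hybrids of SWR females and C57BL/6 males that carried Apc Min/+, a germline mutation in the suppressor of the Wnt pathway. From about weaning all of them, with no untreated group, drank 4% dextran sodium sulfate in 2 cycles of 4 days, with 17 days of water between the cycles. This sugar polymer damages the gut epithelium and causes colitis. Colonoscopy began 30 days later, and biopsies were taken every 28 days. The early biopsies came from mice aged 86 to 117 days and the late biopsies from mice aged 200 to 395 days. The tumors of mice 1755, 1803 and 1805 were adenomas, which are benign, by the final reading of the late biopsy. Those of mice 2201, 3407 and 3413 were intramucosal carcinomas, malignant but not grown beyond the mucosa. Mice 1755 and 3407 were female and the others male. At the late biopsy mice 1755, 1803 and 1805 were 234, 369 and 395 days old. Mice 2201, 3407 and 3413 were 267, 215 and 200 days old at theirs. The late adenomas thus came mostly from older mice, and age and pathology cannot be fully told apart in the late biopsies. The labels call the pathology of early biopsies unknown, so each was grouped by the late reading of its own mouse. Each group of time point and pathology held 3 arrays from 3 separate mice, and this number limits the precision of every value. Normal colon was not analysed here.

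Cytotoxic T cells and natural killer (NK) cells kill by releasing granules onto a target cell. Perforin opens the membrane, granzymes enter and cleave proteins that start cell death, and Fas ligand triggers death from outside through its receptor. Interferon gamma acts at a distance, raising antigen presentation and chemokines in the cells around. In the colon such lymphocytes sit within the epithelium and in the lamina propria. Granzyme B has also been reported in mast cells, which share the gut mucosa with them.

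Gzma and Gzmk are neighbors on mouse chromosome 13 (GRCm38.p6), at 113093824 to 113100981 and 113171630 to 113180965, with 70649 bases between them. Gzmb lies on chromosome 14 at 56258836 to 56262334, at the end of a cluster that also holds the mast cell proteases and 6 further granzyme genes measured here. The other members lie apart. Prf1 (61297751 to 61304684) and Ifng (118441046 to 118445894) are on chromosome 10, and Nkg7 (43437138 to 43438246) and Ncr1 (4337715 to 4345184) on chromosome 7. Klrd1 is on chromosome 6 (129588092 to 129598775), Fasl on chromosome 1 (161780691 to 161788495) and Eomes on chromosome 9 (118478186 to 118486132).

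The stretches of 250 bases before the start site are shown for Gzma and Gzmb, which reached their highest value on the same array, and for Nkg7, which did so on another. They were read 5′ to 3′ on the strand of the gene from the RefSeq promoter table for GRCm38.p6, and capitals mark matches to any of the 7 motifs searched.
Gzma, chr13:113100982-113101231, minus strand: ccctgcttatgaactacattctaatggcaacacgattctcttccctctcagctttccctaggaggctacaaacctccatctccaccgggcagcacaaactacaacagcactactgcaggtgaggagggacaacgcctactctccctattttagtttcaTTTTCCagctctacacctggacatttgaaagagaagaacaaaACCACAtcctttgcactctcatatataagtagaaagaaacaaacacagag
Gzmb, chr14:56262335-56262584, minus strand: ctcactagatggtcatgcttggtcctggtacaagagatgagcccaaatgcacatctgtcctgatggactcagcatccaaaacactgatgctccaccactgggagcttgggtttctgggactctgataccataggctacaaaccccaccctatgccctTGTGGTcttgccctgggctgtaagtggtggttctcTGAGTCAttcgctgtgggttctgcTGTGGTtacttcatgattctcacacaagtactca
Nkg7, chr7:43436888-43437137, plus strand: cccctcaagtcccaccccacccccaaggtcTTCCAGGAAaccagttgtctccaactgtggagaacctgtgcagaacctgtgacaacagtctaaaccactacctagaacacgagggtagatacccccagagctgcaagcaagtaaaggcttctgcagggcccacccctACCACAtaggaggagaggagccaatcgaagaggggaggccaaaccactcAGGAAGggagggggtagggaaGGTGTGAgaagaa

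The motif shared by all 3 was the core that Runx factors bind, TGTGGT on either strand. It was found before the start of 5 of the 9 members in the promoter table (Gzma, Gzmb, Prf1, Nkg7 and Ncr1), against 14% of 32851 promoters of the same length. Gzmb and Ncr1 each held it at 2 positions. Gzmb also held the only AP-1 letters among the 9 (TGANTCA, in 6.75% of all promoters). Nkg7 and Gzmk held the site searched for T-box factors, the family of Eomes (GGTGTGA, in 3.33%). Gzma and Fasl held the NFAT core (GGAAAA, in 20.4%), Prf1, Nkg7 and Fasl the Ets letters (AGGAAG, in 29.5%), and Nkg7 and Ifng the STAT letters (TTCNNNGAA, in 7.02%). The CRE letters TGACGT was found in Prf1 alone (6.47% of all promoters). These are matches of letters, both strands were searched, and none of them was measured as bound.

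The epithelial list (8 measured) had a mean of 12.05 to 13.22 log2 on each array, and the general leukocyte genes (6 measured) 9.05 to 10.90. Array medians ran from 7.62 to 7.80 log2. The NK cell list (7 measured, Ncr1 among them) had a mean of 6.74 to 7.45. Of its genes, Klrb1c (NK1.1) lay between 4.28 and 4.73 and Klre1 between 4.23 and 4.42 on all arrays. Il2rb, which T cells also express, lay between 6.93 and 8.90. Tyrobp, which myeloid cells also express, lay between 9.17 and 10.57, and Itga2 between 10.89 and 12.64. The mean of this list is therefore not a measure of NK cells alone. The 25th percentile of gene means was 6.69, and levels of different probe sets cannot be ranked against each other. In whole biopsies, fewer cells of a type and less RNA per cell cannot be told apart. The arrays also fall into sets by the submitters' sample numbers, with 155 to 255 on 4 early arrays (mice 1755, 1803, 1805, 2201) and 319 to 379 on the other 8 arrays. The labels do not say what the numbers stand for. The pairs of those 4 mice cross the sets and those of mice 3407 and 3413 do not.

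The members fell into those that varied between biopsies and those that hardly did. Gzmb had the widest range over the 12 arrays at 3.84 log2 units, followed by Gzma at 2.70, Klrd1 at 1.65 and Nkg7 at 1.35. The SD of Gzmb was larger than that of 99.0% of genes, that of Gzma larger than 97.0%, that of Klrd1 larger than 93.5% and that of Nkg7 larger than 84.6%. Ncr1 spanned 0.90, Eomes 0.75, Prf1 0.50, Ifng 0.40, Fasl 0.29 and Gzmk 0.23. For Ifng, Fasl and Gzmk the SD was larger than that of only 21.2%, 5.89% and 3.44% of genes. Of the 10 members, 5 had a mean above the 25th percentile of genes (Gzmb, Prf1, Nkg7, Ifng and Eomes) and 5 below it, so the last group sat among the dimmer probe sets. The highest values were not spread evenly. The late biopsy of mouse 2201 gave the highest value of 5 members (Nkg7, Klrd1, Ncr1, Fasl and Gzmk), where 4.93% of all genes peaked, and the early biopsy of mouse 1755 that of Gzma and Gzmb, where 10.8% did.

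**Figure D1:**
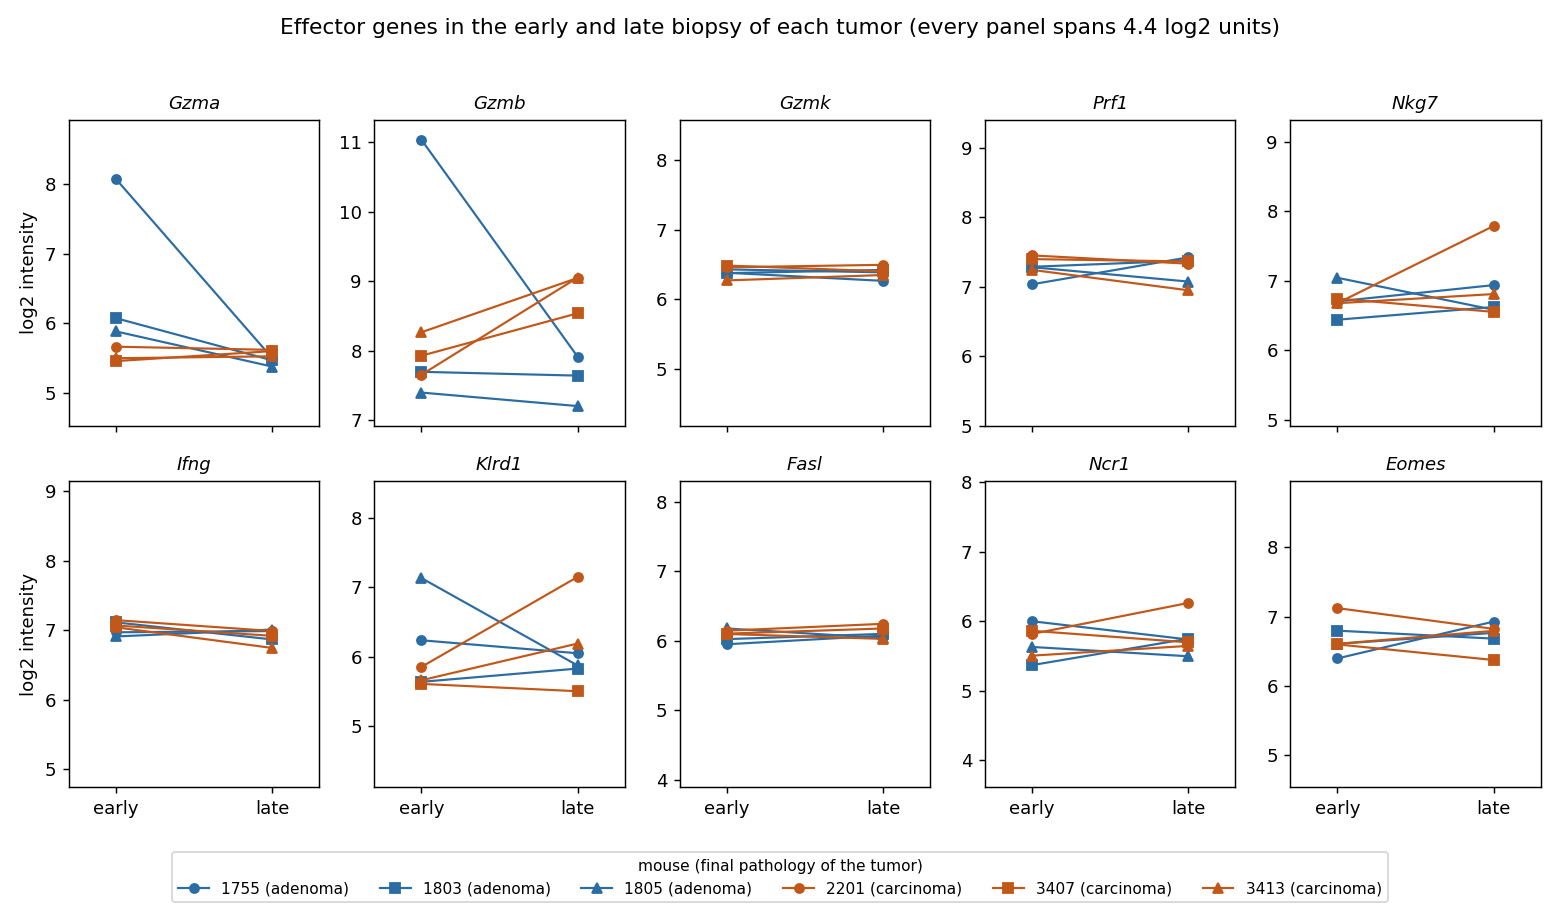
Log2 intensity (y axis) of each of the 10 effector genes in the early and late biopsy (x axis) of 6 tumors, with a line per mouse, blue for final adenoma and orange for final carcinoma. Gzmb falls from 11.04 to 7.91 in adenoma mouse 1755 and is higher late in the 3 carcinoma mice, while Gzmk, Ifng and Fasl are near level lines.

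Across the comparisons, limma with Benjamini-Hochberg adjustment over all genes called 0 of the 10 members. Late against early over all 6 tumors called 0 members at adjusted p under 0.05 (background 0% of genes) and 0 at an unadjusted p under 0.05 (background 14.7%). The median difference of the members was 0.01 log2, against -0.02 for all genes, and their adjusted p ran from 0.426 to 0.952. No member was higher late in 6 of 6 mice (2.59% of genes were) and none was lower in 6 of 6 (5.18%). In the adenoma tumors 0 members passed (background 0.125%), and 1, Gzma, was lower at an unadjusted p under 0.05 (background 10.7% lower). The median difference was -0.03, against -0.01 for all genes. In the carcinoma tumors 0 passed (0%) and 0 at the unadjusted level (4.30%). There 7 of 10 members were higher late, as 39.8% of all genes were, with a median of 0.04, against -0.03 for all genes. The difference of these changes between pathologies called 0 (0%), with Gzma and Gzmb higher at the unadjusted level (background 3.68% higher). Among late biopsies 0 members differed between carcinoma and adenoma (0%, and 0 at the unadjusted level against 11.7%). There 7 of 10 were higher in carcinoma, as 54.2% of all genes were, with a median of 0.11, against 0.02 for all genes. Among early biopsies 0 passed (0%), and Gzma was lower in tumors that ended as carcinoma at the unadjusted level (background 4.90% lower). No comparison thus gave a call among the members, and what follows describes single genes and single tumors.

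**Figure D2:**
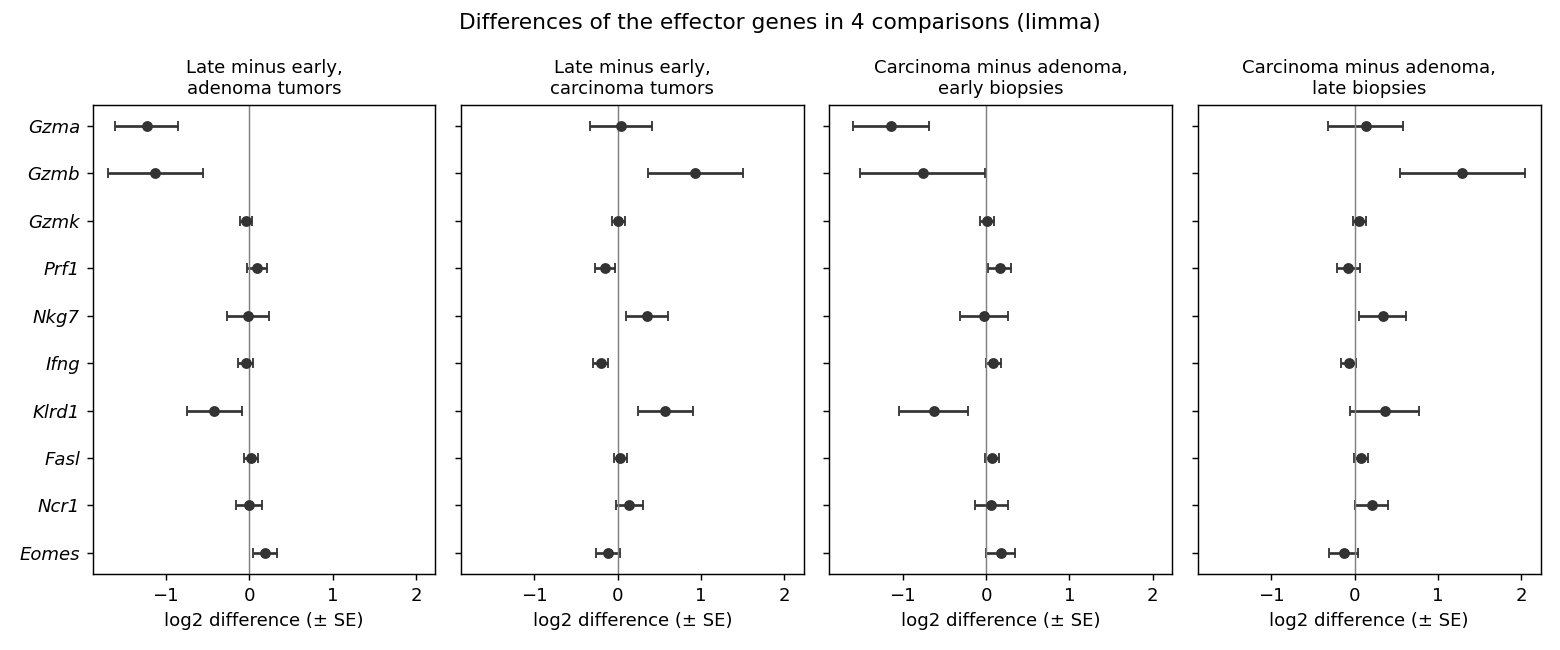
Log2 difference with its SE from limma (x axis) for the 10 effector genes (y axis) in 4 comparisons, each panel 1 comparison of 3 mice per pathology. Gzma and Gzmb lie farthest from 0 in the adenoma change and the early comparison, Gzmb and Klrd1 in the carcinoma change and the late comparison, and none passes the threshold after adjustment.

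Gzmb encodes granzyme B, the serine protease that cleaves caspases and Bid in the target cell. In the early biopsies of the adenoma mice 1755, 1803 and 1805 it was at 11.04, 7.69 and 7.40 log2, and in the late ones at 7.91, 7.64 and 7.20. In the early biopsies of the carcinoma mice 2201, 3407 and 3413 it was at 7.65, 7.93 and 8.26, and in the late ones at 9.05, 8.54 and 9.05. Every late carcinoma lay above every late adenoma, which 2 members, Gzma and Gzmb, and 8.77% of all genes showed. Late minus early was 1.40, 0.61 and 0.78 in the carcinoma mice and -3.13, -0.05 and -0.19 in the adenoma mice. Higher in 3 of 3 carcinoma tumors and lower in 3 of 3 adenoma tumors held for Gzmb alone among the members and for 1.19% of all genes. The decreases in mice 1803 and 1805 were small, and that of mouse 1755 set the adenoma mean.

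The difference between late carcinoma and late adenoma in Gzmb was 1.29 log2 (SE 0.750, 2.45-fold), with group means of 8.88 ± 0.30 and 7.58 ± 0.36 (SD, n = 3 each) and a limma adjusted p of 0.512. The 4 groups share 1 estimate of spread in this fit, and the early biopsy of mouse 1755 enters it. Leaving out that mouse also drops its late biopsy, at 7.91 the highest of the late adenomas. The difference was then 1.46, at a limma adjusted p of 0.197, with only mice 1803 and 1805 as late adenomas. With all mice and age as a covariate it was 1.77. Within the carcinoma tumors Gzmb was 0.93 higher late (SE 0.567, limma adjusted p = 0.952). Within the adenoma tumors it was 1.13 lower (difference -1.13, SE 0.567, limma adjusted p = 0.361), but -0.12 without mouse 1755. The changes differed by 2.06 (SE 0.802, limma adjusted p = 0.706), and by 1.06 without mouse 1755. Among early biopsies the value was -0.76 (SE 0.750), and 0.40 without mouse 1755, so its sign rested on that array.

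Gzma encodes granzyme A, a trypsin-like protease that kills without the caspases. It was at 8.07, 6.07 and 5.88 log2 in the early biopsies of mice 1755, 1803 and 1805, and at 5.50, 5.46 and 5.37 in the late ones. In mice 2201, 3407 and 3413 it was at 5.66, 5.45 and 5.49 early and at 5.61, 5.60 and 5.52 late. The early adenoma tumors stood above the other 9 arrays, which all lay within 5.37 to 5.66. Every early biopsy of a tumor that ended as carcinoma was below every one that ended as adenoma, a pattern of 7.31% of all genes and of Gzma alone among the members. The late groups did not overlap either, but they were separated by only a few hundredths of a log2 unit, with means of 5.58 ± 0.05 in carcinoma and 5.44 ± 0.06 in adenoma (SD, n = 3 each).

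Late minus early Gzma was -2.58, -0.61 and -0.51 in the adenoma mice and -0.05, 0.14 and 0.03 in the carcinoma mice, without overlap between pathologies (6.39% of genes had every carcinoma change above every adenoma change). The adenoma change was -1.23 (SE 0.376, unadjusted p = 0.0145 and adjusted p = 0.178 by limma). Without mouse 1755 it was -0.56, at an adjusted p of 0.160, with the decrease still in 2 of 2 mice. The early difference, carcinoma minus adenoma, was -1.14 (SE 0.453, limma adjusted p = 0.366), and -0.44 without mouse 1755. The changes by pathology differed by 1.27 (SE 0.531, limma adjusted p = 0.708), and by 0.60 without that mouse. All 3 adenoma pairs cross the sets of sample numbers, and in the 2 pairs within a set the mean change was 0.09 ± 0.08 (SD, n = 2), against -0.93 ± 1.12 (SD, n = 4) in those that cross. For Gzmb these values were 0.70 ± 0.12 within a set and -0.49 ± 1.90 across.

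The early biopsy of mouse 1755 carried Gzmb 3.96-fold and Gzma 4.01-fold above the second highest of the 12 arrays. By Dixon's ratio, the gap of an extreme value over the range of its group, both stood apart from the other 5 early arrays, as 0.692% of all genes did in that biopsy. Mast cell and basophil transcripts were at their highest on the same array. Their list mean there was 10.69 log2, against 7.18 to 8.96 on the other 11 arrays, and 8 of its 9 measured genes peaked there. By group the list mean was 7.55 to 10.69 in early adenoma mice, 8.61 to 8.95 in early carcinoma mice, 7.18 to 7.74 in late adenomas and 7.25 to 8.96 in late carcinomas. Gzma was at 5.45 to 5.66 in the early carcinoma mice. Mcpt8, a protease of basophils, was at 9.11, against 6.07 to 6.54 on the other arrays, and Fcer1a, a chain of the IgE receptor, was at 10.36, against 5.92 to 7.82 elsewhere. The mast cell carboxypeptidase Cpa3 was at 11.39, and Ms4a2, another chain of that receptor, at 9.09. The T cell list (12 measured) was at 7.22 on that array, rank 11 of the 12, with Cd3e at 8.03 and Cd3g at 7.48. The other members were not uniform on that array. Prf1 (7.03), Fasl (5.95) and Eomes (6.40) were among their lowest values, and Ncr1 (6.00) and Klrd1 (6.24) among their highest. The intraepithelial lymphocyte list was at 7.21 there, rank 4 of 12, and the NK cell list at 7.12, rank 5, with Itga2 at 11.90. The part of mast cells or basophils in the granzyme values was not tested.

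**Figure D3:**
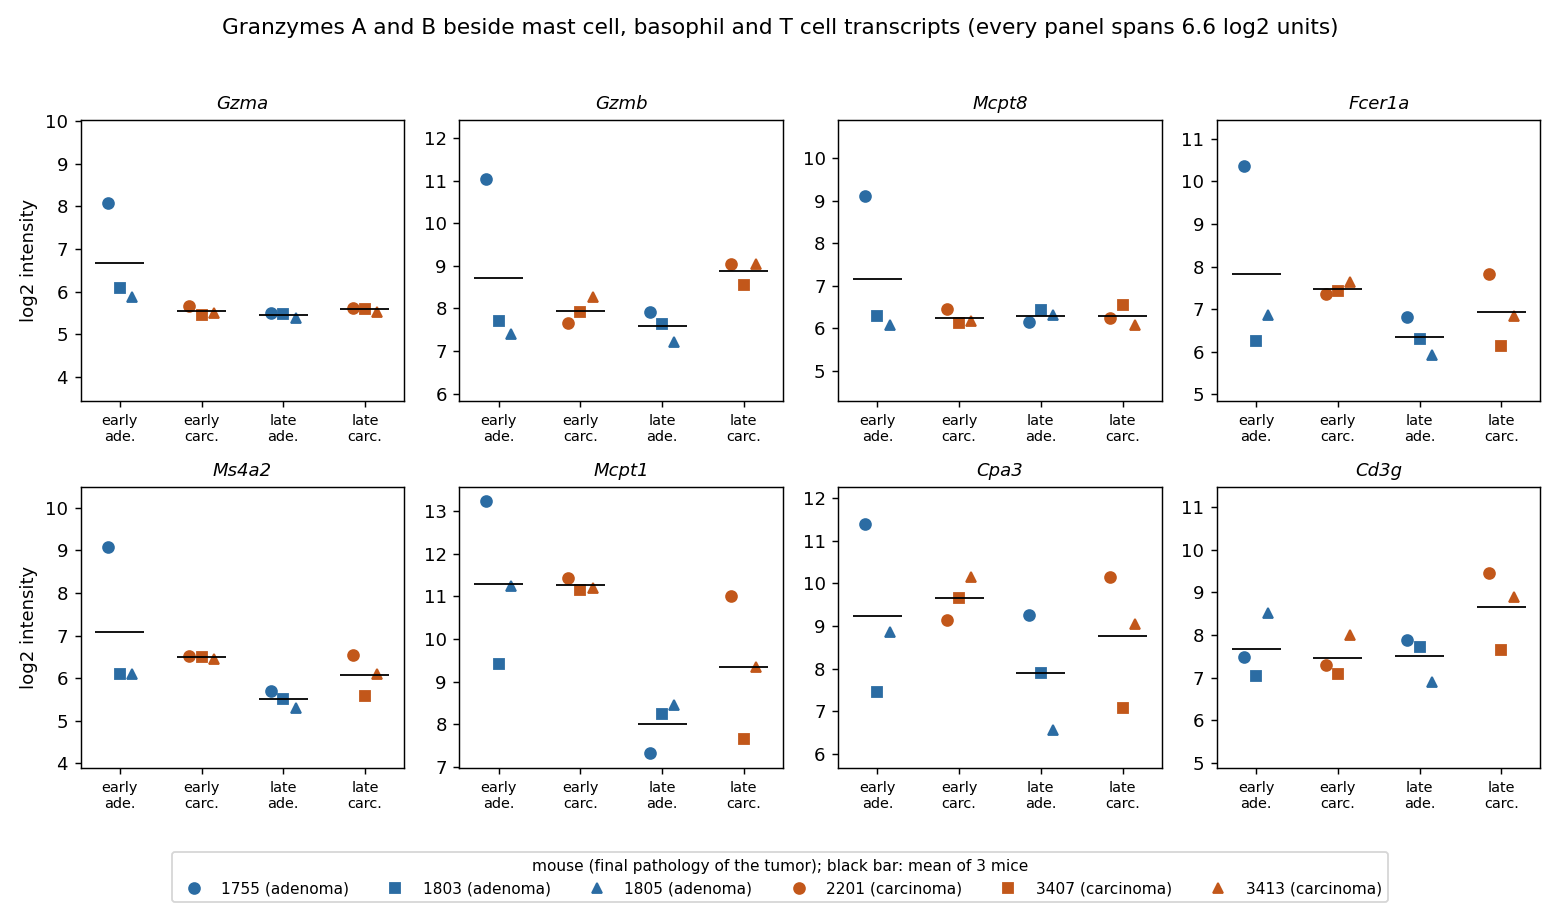
Log2 intensity (y axis) of Gzma and Gzmb beside mast cell, basophil and T cell genes in the 4 groups of time point and final pathology (x axis), with a point per mouse and a bar at the mean of 3. The early biopsy of mouse 1755 is the highest point for Gzma, Gzmb, Mcpt8, Fcer1a, Ms4a2, Mcpt1 and Cpa3 but not for Cd3g, where it is at 7.48.

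In the gene cluster around Gzmb on chromosome 14, the Mcpt genes and the other granzymes differed on the early array of mouse 1755. At the far end from Gzmb are Mcpt1, Mcpt2, Mcpt4 and Mcpt8, whose nearest edge lies 173 kb away for Mcpt8 and 238 kb away for Mcpt1. All 4 were highest in the early biopsy of mouse 1755, at 13.23, 13.67, 10.95 and 9.11 log2. Between them and Gzmb lie Gzme, Gzmd, Gzmg, Gzmn, Gzmf and Gzmc, the last of them 17.2 kb from Gzmb. None of these 6 was highest on that array, and Gzmc was at 5.31 there, within 5.20 to 5.64 on the other arrays. Mcpt1 was at 11.00, 7.66 and 9.35 in the late carcinomas of mice 2201, 3407 and 3413 and at 7.32, 8.25 and 8.45 in the late adenomas. In the late carcinomas Gzmb was at 9.05 in mouse 2201, at 8.54 in mouse 3407 and at 9.05 in mouse 3413, with the mast cell list at 8.96, 7.25 and 8.13. The late adenomas, with Gzmb at 7.20 to 7.91, had that list at 7.18 to 7.74, which overlaps the late carcinomas.

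Gzmk encodes the third granzyme of the set, a tryptase of memory T cells. It stayed within 6.26 to 6.49 log2 on all 12 arrays and its changes per mouse ran from -0.12 in mouse 1755 to 0.08 in mouse 3413. The gene lies beside Gzma, but its probe set did not share the pattern of Gzma. This probe set is among the dimmer ones, and detection calls were not used. An unchanged gene and one that was not detected therefore cannot be told apart. Of the 7 other granzymes measured (Gzmc, Gzmd, Gzme, Gzmf, Gzmg, Gzmm and Gzmn), 0 passed limma's test in any comparison after adjustment and 0 at an unadjusted p under 0.05, with list means of 5.52 to 5.75 on the arrays.

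Prf1 encodes perforin, which granzymes need to enter the target. In mice 1755, 1803 and 1805 it was at 7.03, 7.29 and 7.28 log2 early and at 7.42, 7.37 and 7.07 late. In mice 2201, 3407 and 3413 it was at 7.45, 7.40 and 7.24 early and at 7.33, 7.36 and 6.95 late. The groups overlapped throughout, and Prf1 did not follow Gzmb in the late carcinomas. Its difference there was -0.08 (SE 0.140, limma adjusted p = 0.872). Genes that load, move and dock the granules (12 measured) had 0 calls by limma after adjustment, and at an unadjusted p under 0.05 there were 1 higher and 4 lower late in the adenoma tumors, where 18.0% of all genes reached that level. Among them Cst7, an inhibitor of the proteases that activate granzymes, was 0.76 lower late in the adenoma tumors (difference -0.76, SE 0.287) and differed in its change between pathologies by 1.16 (SE 0.406, limma adjusted p = 0.654). Its highest value was 8.16, in the late biopsy of mouse 2201. Rab27a, the GTPase that docks granules at the membrane, had a difference of changes of 0.45 (SE 0.108, limma adjusted p = 0.621). The vesicle SNARE Vamp7 was lower late by 0.33 over all tumors (difference -0.33, SE 0.0613, limma adjusted p = 0.206).

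Nkg7 encodes a protein of the granule membrane needed for release. It was at 6.70, 6.44 and 7.04 log2 early and at 6.94, 6.62 and 6.58 late in mice 1755, 1803 and 1805. In mice 2201, 3407 and 3413 it was at 6.68, 6.74 and 6.68 early and at 7.79, 6.55 and 6.81 late. The value of 7.79 stood 0.75 above the second highest of the 12 arrays, while the other 11 spanned 0.60. Late carcinoma minus late adenoma was 0.34 (SE 0.287, limma adjusted p = 0.680) and turned to -0.03 without mouse 2201. The late minus early change in carcinoma, 0.35 (SE 0.255, limma adjusted p = 0.952), likewise was -0.03 without that mouse.

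Klrd1 encodes CD94, the partner of the NKG2 receptors on NK cells and some CD8 T cells. In mice 1755, 1803 and 1805 it was at 6.24, 5.64 and 7.13 log2 early and at 6.05, 5.83 and 5.88 late. In mice 2201, 3407 and 3413 it was at 5.85, 5.61 and 5.66 early and at 7.15, 5.50 and 6.19 late. It was thus high on an early adenoma and a late carcinoma array, and at its lowest in the late carcinoma of mouse 3407. Its changes by pathology differed by 0.99 (SE 0.469, unadjusted p = 0.0740 and adjusted p = 0.724 by limma), and by 0.57 without mouse 1805 and 0.63 without mouse 2201. The adenoma change of -0.42 (SE 0.331) became 0.00 without mouse 1805, and the late difference of 0.36 (SE 0.414) became -0.07 without mouse 2201. In the early biopsy of mouse 1805 the B cell genes were also high, with Ms4a1 at 10.87 and Cd79a at 10.76, and the leukocyte gene Ptprc was at 10.72. The T cell list was at 7.79 there and the intraepithelial lymphocyte list at 7.38. Cd2 was at 8.42, its highest value, and Cd8b1 at 7.39. Cd8a was at 6.89, within 6.55 to 7.06 on the other arrays, and the NK cell list was at 7.03. The part of any of these cells in that Klrd1 value was not tested.

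Ncr1 encodes NKp46, an activating receptor largely restricted to NK cells and related innate lymphocytes. It was at 6.00, 5.37 and 5.63 log2 early and at 5.74, 5.75 and 5.50 late in the adenoma mice. In the carcinoma mice it was at 5.82, 5.86 and 5.50 early and at 6.26, 5.70 and 5.65 late. The groups overlapped, and mouse 2201 again gave the highest value. Late carcinoma minus late adenoma was 0.21 (SE 0.197, limma adjusted p = 0.715). Of 16 further NK receptors and adaptors measured, 12 were higher in late carcinoma than in late adenoma, as 54.2% of all genes were. Their median was 0.13, against 0.02 for all genes. By limma 0 passed after adjustment and 1 was lower at an unadjusted p under 0.05 (11.7% of all genes in either direction).

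The late biopsy of mouse 2201 was rich in lymphocyte transcripts beyond the members. That array was the highest of 12 arrays for 9 of 12 T cell genes, among them Cd3g at 9.46 and Cd3e at 9.89, for 9 of the 16 NK receptors and adaptors and for 4 of 5 intraepithelial lymphocyte genes. The T cell gene Cd8a was at 6.79 there, below its highest value of 7.06. The T cell list mean was 8.10 there and 7.11 to 7.82 on the other arrays, with 7.82 in the late biopsy of mouse 3413. Klrc1, which encodes the NKG2A chain that pairs with CD94, was at 6.26, and Klri2 at 6.35. The macrophage list and the innate lymphoid list were also at their highest (10.71 and 8.09). Of the 12 T cell genes 12 were higher in late carcinoma than in late adenoma, as 54.2% of all genes were. Their median was 0.42, against 0.02 for all genes. By limma 0 passed after adjustment and 3 were higher at an unadjusted p under 0.05, which 11.7% of all genes reached. Their list mean was 7.36 to 8.10 in late carcinoma and 7.11 to 7.49 in late adenoma, so the ranges overlapped. How much of the Nkg7, Klrd1 and Ncr1 values follows the number of T cells was not tested.

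**Figure D4:**
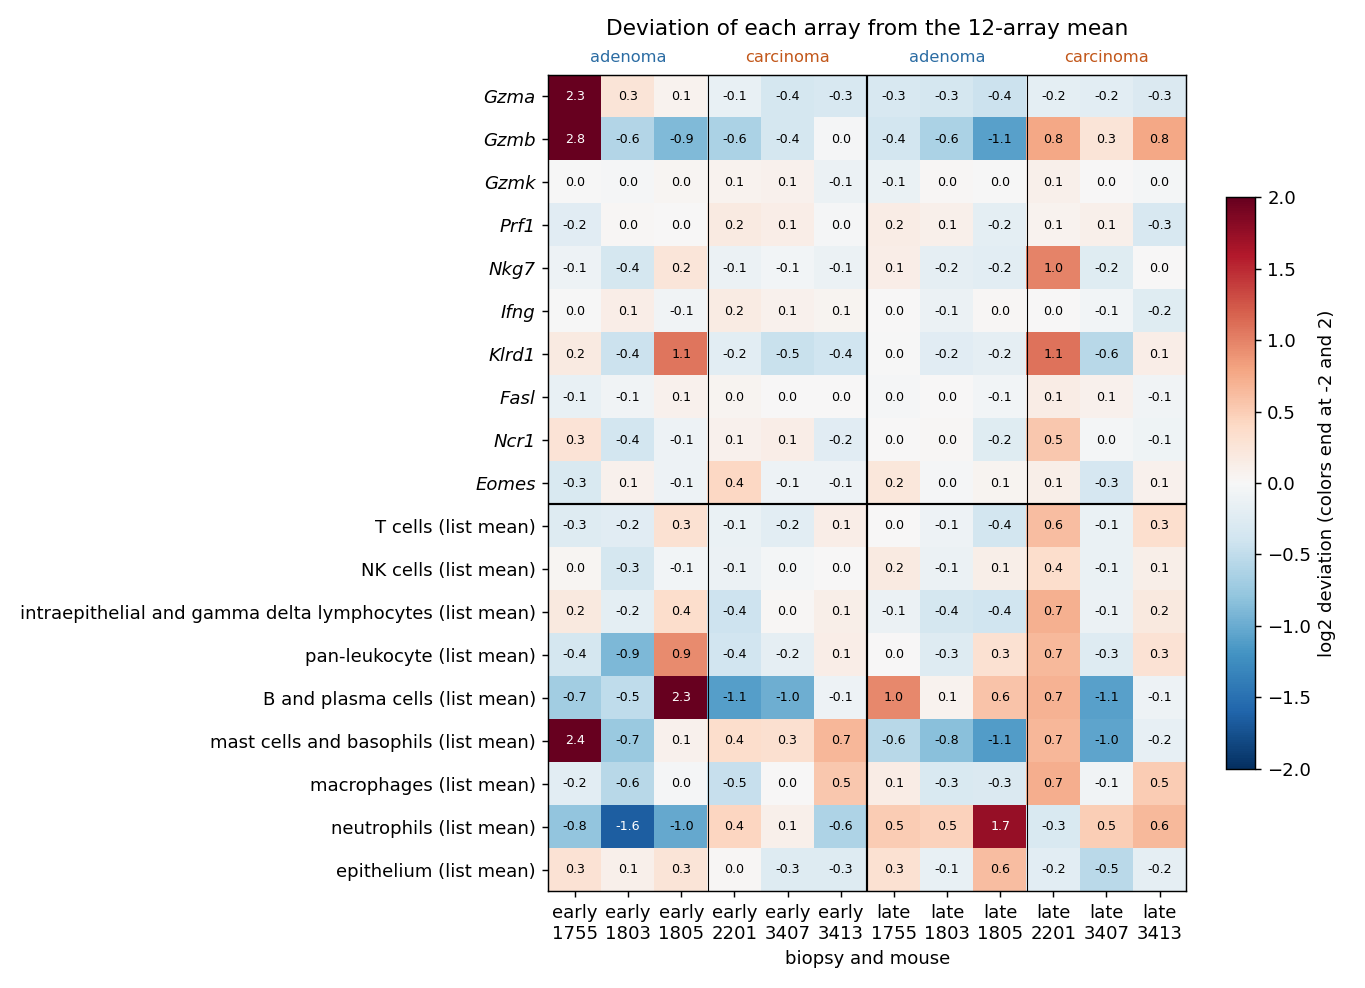
Deviation of each array from the 12-array mean (color and printed number, log2) for the 10 effector genes and for the mean of 9 cell marker lists (rows), by biopsy and mouse (columns), grouped by final pathology. The early biopsy of mouse 1755 is high for Gzma, Gzmb and the mast cell list, and the late biopsy of mouse 2201 for Nkg7, Klrd1, Ncr1 and the T cell list.

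Ifng encodes interferon gamma, the cytokine of these cells. Over the 12 arrays its lowest value was 6.74, its median 6.99 and its highest 7.15 log2. It was lower late in 3 of 3 carcinoma mice (-0.16, -0.15 and -0.30), and the adenoma mice gave 0.02, -0.25 and 0.10. The carcinoma change was -0.20 (SE 0.0894, unadjusted p = 0.0614 and adjusted p = 0.952 by limma). In the late biopsy of mouse 2201, where T cell genes were high, Ifng was at 6.99, close to its median. Detection calls were not used, so an unchanged Ifng and a probe set that does not respond cannot be told apart. Of 19 measured genes for the interferon gamma receptor and its targets, 18 were higher late in the carcinoma tumors (median 0.20, against -0.03 for all genes) and 14 lower late in the adenoma tumors (median -0.14, against -0.01). By limma 0 passed in any comparison after adjustment, and at an unadjusted p under 0.05 there were 0 in the carcinoma tumors and 2, both lower, in the adenoma tumors (background 4.30% and 18.0%). Psmb8, a subunit of the immunoproteasome, was 0.94 lower late in adenoma tumors (difference -0.94, SE 0.283, limma adjusted p = 0.174). The chemokine Cxcl9 was at 12.01 in the late biopsy of mouse 2201, and 8 of the 19 genes peaked there. Of all genes, 39.8% were higher late in the carcinoma tumors and 47.2% in the adenoma tumors. The mean of these genes went from 8.84 early to 9.83 late in carcinoma mouse 2201 from 8.95 to 8.64 in mouse 3407 and from 8.72 to 8.83 in mouse 3413. The increase was thus mostly that of mouse 2201, and mouse 3407 went the other way.

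Fasl encodes Fas ligand. It ranged from 5.95 to 6.24 log2 with a median of 6.10, and its differences in the 6 comparisons lay between 0.01 and 0.08. The other genes of the death receptor pathway (9 measured) had 0 calls by limma after adjustment, and 2 were higher in late carcinoma than in late adenoma at an unadjusted p under 0.05 (11.7% of all genes in either direction). Tnfsf10, which encodes the related ligand TRAIL, was at 10.83, 10.41 and 10.32 in the late carcinomas of mice 2201, 3407 and 3413 and at 8.96, 8.97 and 8.51 in the late adenomas. These groups did not overlap, and 8.77% of all genes had every late carcinoma above every late adenoma. The difference of Tnfsf10 was 1.71 (SE 0.419, limma adjusted p = 0.401). Its early values of 8.57, 10.55 and 8.91 in adenoma mice and 9.72, 10.01 and 9.61 in carcinoma mice did overlap. Fas, the receptor of Fas ligand, differed by 0.10 late against early over all tumors (SE 0.0879).

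Eomes encodes the T-box factor that drives effector genes in NK and CD8 T cells. It was at 6.40, 6.80 and 6.61 log2 early and 6.93, 6.68 and 6.77 late in the adenoma mice, and at 7.12, 6.60 and 6.61 early and 6.82, 6.37 and 6.79 late in the carcinoma mice. The groups overlapped, and the largest difference was that of the changes by pathology, -0.30 (SE 0.207, limma adjusted p = 0.774). Of 10 other transcription factors of effector cells, 0 passed in any comparison after adjustment and 0 at an unadjusted p under 0.05. Runx3, a Runx factor of CD8 T cells, was 0.44 higher in late carcinoma than in late adenoma (SE 0.311). Among 14 cytokines and receptors that feed these cells, Il2rb, the shared receptor chain for IL-2 and IL-15, was 0.72 higher late over all tumors (SE 0.243, limma adjusted p = 0.274). Its highest value was 8.90, in the late biopsy of mouse 2201. The cytokine Il15 was lower in early biopsies of tumors that ended as carcinoma (difference -0.75, SE 0.268, limma adjusted p = 0.334).

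The receptors that restrain effector cells and the proteins that shield their targets were measured beside the members. All 6 inhibitory receptors were higher late over all tumors, as 42.1% of all genes were, with a median of 0.44, against -0.02 for all genes. By limma 0 passed after adjustment and 3 were higher at an unadjusted p under 0.05, which 14.7% of all genes reached. The increase was not particular to these receptors. Of the general leukocyte genes 6 of 6 were also higher late (median 0.30), as were 8 of 8 fibroblast and 8 of 8 endothelial genes, but only 3 of 8 epithelial genes. Havcr2 (TIM-3) had a difference of 0.77 (SE 0.184, limma adjusted p = 0.229) and Pdcd1 (PD-1) of 0.67 (SE 0.216, limma adjusted p = 0.272). Pdcd1 was at 9.21 in the late biopsy of mouse 2201 and at 8.04 and 7.81 in the other late carcinomas. On the target side, Serpinb1a, a protease inhibitor, was lower in late carcinoma than in late adenoma (difference -1.20, SE 0.393, limma adjusted p = 0.401). So was Cd55, which blocks complement (-0.83, SE 0.268, limma adjusted p = 0.401). Both were already lower in early biopsies of tumors that ended as carcinoma. The early differences were -1.23 for Serpinb1a (SE 0.393, limma adjusted p = 0.298) and -0.96 for Cd55 (SE 0.268, limma adjusted p = 0.284). Of the 8 epithelial genes, 8 were lower in carcinoma in the late comparison (median -0.19) and 7 in the early one (median -0.20). Of all genes, 54.2% were higher in the late comparison and 60.1% in the early one. The part of epithelial content in the Serpinb1a and Cd55 values was not tested. Raet1d, a stress ligand for the NK receptor NKG2D whose closely similar family members may share its signal, was 0.94 higher late in the adenoma tumors (SE 0.129, limma adjusted p = 0.0580). Serpinb9, the inhibitor of granzyme B, differed by 0.46 late against early over all tumors (SE 0.203, limma adjusted p = 0.352). The receptor Cxcr6, found on tissue-resident lymphocytes, was 1.00 higher in late carcinoma than in late adenoma (SE 0.340, limma adjusted p = 0.401). It was at 8.86, 7.36 and 8.15 in the late carcinomas of mice 2201, 3407 and 3413. In the late adenomas of mice 1755, 1803 and 1805 it was at 7.14, 7.41 and 6.81, so the groups overlapped.

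Likeness between genes was described by Pearson's r over the 12 arrays, which share mice and cell composition. Gzma and Gzmb had r = 0.77, and -0.14 without the early biopsy of mouse 1755. Nkg7 and Klrd1 had r = 0.83, and 0.85 without it, and Nkg7 and Ncr1 had r = 0.72 and 0.80. The genes outside the members most like Klrd1 were Cd8b1, the beta chain of CD8 (r = 0.93), Cd27, a costimulatory receptor (0.92), and Rassf5 (0.90). Cd8a, the other chain of CD8, stayed within 6.55 to 7.06 log2. It was highest in the early biopsy of mouse 2201, where Klrd1 was at 5.85. The genes most like Nkg7 were Cd27 (0.91), Ctla4 (0.89) and Hhex (0.89). For Gzmb they were Mrpl24 (0.90), Phf11d (0.89) and Rxrb (0.87), and for Gzma Pla2g4c (0.96), Rbm7 (0.96) and Gng13 (0.95). Without the early biopsy of mouse 1755 the r values with Gzma were 0.24 for Pla2g4c, 0.79 for Rbm7 and 0.49 for Gng13. Those with Gzmb were then 0.87 for Mrpl24, 0.63 for Phf11d and 0.70 for Rxrb. With the mean of the 10 members the highest values were those of Zfp273 (0.91), Clnk (0.90), Scarna13 (0.90), Tap1 (0.89), Gbp3 (0.89), C2 (0.88), Lat2 (0.87) and Fcer1a (0.84). Without that array they were 0.64 for Fcer1a and 0.78 to 0.85 for the others. For Prf1 the nearest were Kncn (0.89), Mmd2 (0.88) and Lrrc75b (0.88). Prf1 and Gzmb had r = -0.48, and -0.22 without that array.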

How the data were processed

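Biopsies were stabilized in RLT buffer or RNALater and 300 ng of RNA each was labelled for Affymetrix arrays, per the labels' protocols. The authors deposited 1 value per probe set and array, read here as log2 intensity from the range of the values. Their summary and normalization are not given in the sources used here. Raw files and detection calls were not used. Of 35557 probe sets, 21789 carry 1 gene symbol. For genes with several, the one with the highest mean over 12 arrays was kept, leaving 19938 genes, fitted together with limma 3.58.1 in R 4.3.3 (lmFit, eBayes, 2-sided, Benjamini-Hochberg over all genes, threshold 0.05).

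Late was compared with early with mouse as a fixed block, over all tumors and by pathology (residual degrees of freedom 5 and 4). Carcinoma was compared with adenoma over 4 groups with mouse as a random block (consensus correlation 0.286, 8 degrees of freedom). Pairing is by animal, and deviations of a mouse's arrays correlated at r = 0.11 to 0.53, with 5 of 6 mice best matched to themselves. The fits were tested on simulated data. Values after ± are SD. Alternatives were the choice of probe set, a filter on dim genes, quantile and median scaling, a prior with a trend, leaving out each mouse, a term for the sample number sets, no block, age, and smaller sets of arrays.

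The members are named in every comparison. Of the other lists, up to 4 genes per comparison were named by smallest p, and the genes most like a member by Pearson's r among those above the 25th percentile of means. Single array values of list genes, and Gzmc and the Mcpt genes beside Gzmb, were chosen after their values were seen. Members and lists were chosen with earlier results of these data known, so none of them is independent evidence.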

Additional observations from a re-analysis of the deposited data

Results flagged for a closer look

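In groups of 6 biopsies of 1 time point, 4 of 20 member groups had 1 biopsy set far apart from the others, where chance flags about 1 in 20 groups and 6.62% of all genes in the early and 10.9% in the late biopsies were so marked. Gzma was at 8.07 log2 in the early biopsy of mouse 1755, and the next early value was 6.07. Gzmb was at 11.04 in the same biopsy, and the next early value was 8.26. Such a high value in that biopsy was seen in 0.692% of all genes. Nkg7 was at 7.79 in the late biopsy of mouse 2201, and the next late value was 6.94. Ncr1 was at 6.26 in that biopsy, and the next was 5.75. These groups share arrays and are not independent. Gzmb was higher late in 3 of 3 carcinoma and lower in 3 of 3 adenoma tumors, as 1.19% of all genes were. Its adenoma change was -3.13 in mouse 1755 but only -0.05 and -0.19 in mice 1803 and 1805. The changes differed by 2.06 log2 between pathologies (limma adjusted p = 0.706 for the interaction), and by 1.06 without mouse 1755.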

How the results depend on the processing

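Over 16 alternative settings, limma called 0 members in every comparison, and the lowest adjusted p of a member was 0.160. Of 60 member differences, 34 were smaller than their own SE, and 46 of the 810 alternative values changed sign among these. Among the larger ones, 7 turned. With 1 mouse left out, Nkg7 ran from -0.030 (without mouse 2201) to 0.62 in the carcinoma change, from -0.015 (without 2201) to 0.64 in the difference of changes and from -0.034 (without 2201) to 0.58 in late carcinoma minus adenoma. Klrd1 in adenoma tumors ran from -0.72 to 0.0021 (without 1805), and Gzmb in the early comparison from -1.42 to 0.40 (without 1755). With a term for the sample number sets, Nkg7 was at -0.030 in the carcinoma change and Gzma at 0.086 over all tumors. With no replicate block, in place of the pairing by mouse, 0 members passed and Gzma in adenoma tumors was at -1.23 with an adjusted p of 0.289. The cause of these turns was not tested beyond the arrays left out. The difference of changes for Gzmb ran from 1.06 to 2.59 and its late difference from 1.10 to 1.77. The count over all genes in adenoma tumors, 25, became 57 with median centring, 13 with the filter on dim genes, 2 with no block and 0 with the set term. With 1 mouse left out it ran from 0 to 78. The late comparison gave 395 genes and the early one 67 without mouse 1803, in place of 0. Under the filter on dim genes, 5 members were not tested.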
